A study of Mus with 16 samples.

Results

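The 7 subunits of respiratory complex I that are encoded in mitochondrial DNA were followed in epiblast stem cells of 4 F1 mouse crosses. They were mt-Nd1, mt-Nd2, mt-Nd3, mt-Nd4l, mt-Nd4, mt-Nd5 and mt-Nd6, each taken from the tables by its Ensembl transcript ID, and all 7 were found among the 116747 transcripts listed. Epiblast stem cells are cultured pluripotent cells with the properties of the post-implantation epiblast, the layer that gives rise to the embryo proper. The crosses, CastB6, MolfB6, PwkB6 and SpretB6, each join C57Bl/6J, a laboratory strain, to 1 wild-derived strain, so every cell carries a C57Bl/6J nuclear genome from 1 parent. As strain names are commonly used, CAST, MOLF and PWK come from subspecies of Mus musculus and SPRET from the species Mus spretus. Each cross had 4 libraries of ribodepleted total RNA from bulk cells, named here by the number in their titles. No treatment, age or passage was given, and the labels do not say whether libraries of a cross came from separate lines or cultures. The p-values therefore rest on the spread among libraries alone, and part of that spread may be technical.

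Complex I takes electrons from NADH, passes them to ubiquinone and pumps protons across the inner mitochondrial membrane. The mitochondrially encoded subunits form the core of its membrane arm, and many more subunits come from nuclear genes. Mitochondrial DNA is copied into long RNAs that are cut into single transcripts, mostly at the transfer RNAs between them, and mt-Nd6 alone of these subunits is read from the light strand. Primed pluripotent cells are known for relying strongly on glycolysis. Mitochondrial DNA comes from the mother, and the labels do not say which strain was the mother, so each cross may carry either a C57Bl/6J or a wild-derived mitochondrial genome. How reads with variants of a wild-derived mitochondrial genome were matched was not measured.

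The transcripts are ENSMUST00000082392.1 (mt-Nd1), ENSMUST00000082396.1 (mt-Nd2), ENSMUST00000082411.1 (mt-Nd3), ENSMUST00000084013.1 (mt-Nd4l), ENSMUST00000082414.1 (mt-Nd4), ENSMUST00000082418.1 (mt-Nd5) and ENSMUST00000082419.1 (mt-Nd6). The tables list these IDs without gene names, and the names are those under which the set was defined. The listed length of each transcript equals that of its gene in RefSeq's table for GRCm38.p6, the assembly that mm10 also stands for. In that table mt-Nd1 lies at MT:2751-3707 (957 bases), mt-Nd2 at MT:3914-4951 (1038 bases) and mt-Nd3 at MT:9459-9806 (348 bases). They are followed by mt-Nd4l at MT:9877-10173 (297 bases), mt-Nd4 at MT:10167-11544 (1378 bases), mt-Nd5 at MT:11742-13565 (1824 bases) and mt-Nd6 at MT:13552-14070 (519 bases). The mt-Nd4l and mt-Nd4 genes overlap by 7 bases, and the 2 are carried on 1 mature RNA. The mt-Nd5 and mt-Nd6 genes overlap by 14 bases on opposite strands. Whether reads were counted by strand is not given in the sources used here, for this overlap or for the rest of either gene. Estimates for mt-Nd6 were whole numbers (within 0.001 of a read) in 13 of 16 libraries. The other 6 transcripts were fractional in every library, so some of their reads were divided with other listed transcripts.

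Library totals ran from 42596559 to 72364991 estimated counts. The 7 transcripts took 1.34% ± 0.191 of the counts (SD, n = 16), and between 1.67% and 2.60% of the TPM of a library. TPM, a level per transcript length that sums to the same value in each library, describes the makeup of a library and was used to compare genes. Differences between crosses were tested with edgeR on counts scaled by TMM, which adjusts each library total for its composition, and are given as log2 fold changes. PwkB6 6 had the highest TMM factor, 1.19 against 0.879 to 1.06 in the other 15 libraries, so its scaled counts are lower relative to its TPM than elsewhere. The single log2 fold changes below that involve PwkB6 are also given without it. The epiblast identity of the cells and the nuclear complex I genes were not analysed here, because the tables used do not pair transcript IDs with gene names.

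Levels of the transcripts differed among each other far more than among crosses. mt-Nd1, whose protein sits where the membrane arm meets the ubiquinone site, was the most abundant member in all 16 libraries at 9234 ± 1233 TPM (SD, n = 16). It ranked 6th to 9th of all listed transcripts. mt-Nd2, one of the proton-pumping subunits, followed at 3428 ± 557 TPM (SD, n = 16). In each library mt-Nd1 lay 2.02 to 3.49 times above it. The light-strand transcript mt-Nd6 was the lowest in every library at 264 ± 106 TPM (SD, n = 16). Its level was 3.32 to 10.6 times below that of mt-Nd5, its neighbour on the genome.

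Between these ends the order was partly fixed. mt-Nd4l stood at 2484 ± 452 TPM, mt-Nd4 at 1986 ± 698, mt-Nd3 at 1984 ± 636 and mt-Nd5 at 1438 ± 377 (SD, n = 16 each). mt-Nd4 was above mt-Nd5 in 16 of 16 libraries, with a median ratio of 1.33. mt-Nd4l was above mt-Nd4 in 15 of 16, the exception being PwkB6 6. TPM divides reads by an effective length, which is much below the listed length for short transcripts. It was 146 to 153 of 297 bases for mt-Nd4l and 195 to 203 of 348 for mt-Nd3. For mt-Nd4 it was 1222 to 1231 of 1378 bases. The order of these transcripts in TPM therefore depends on that correction. mt-Nd3 had no settled place: it was below mt-Nd4l in 11 of 16 libraries, above mt-Nd4 in 10 and above mt-Nd5 in 12. On the genome mt-Nd3 lies between mt-Nd2 and mt-Nd4l.

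**Figure D1:**
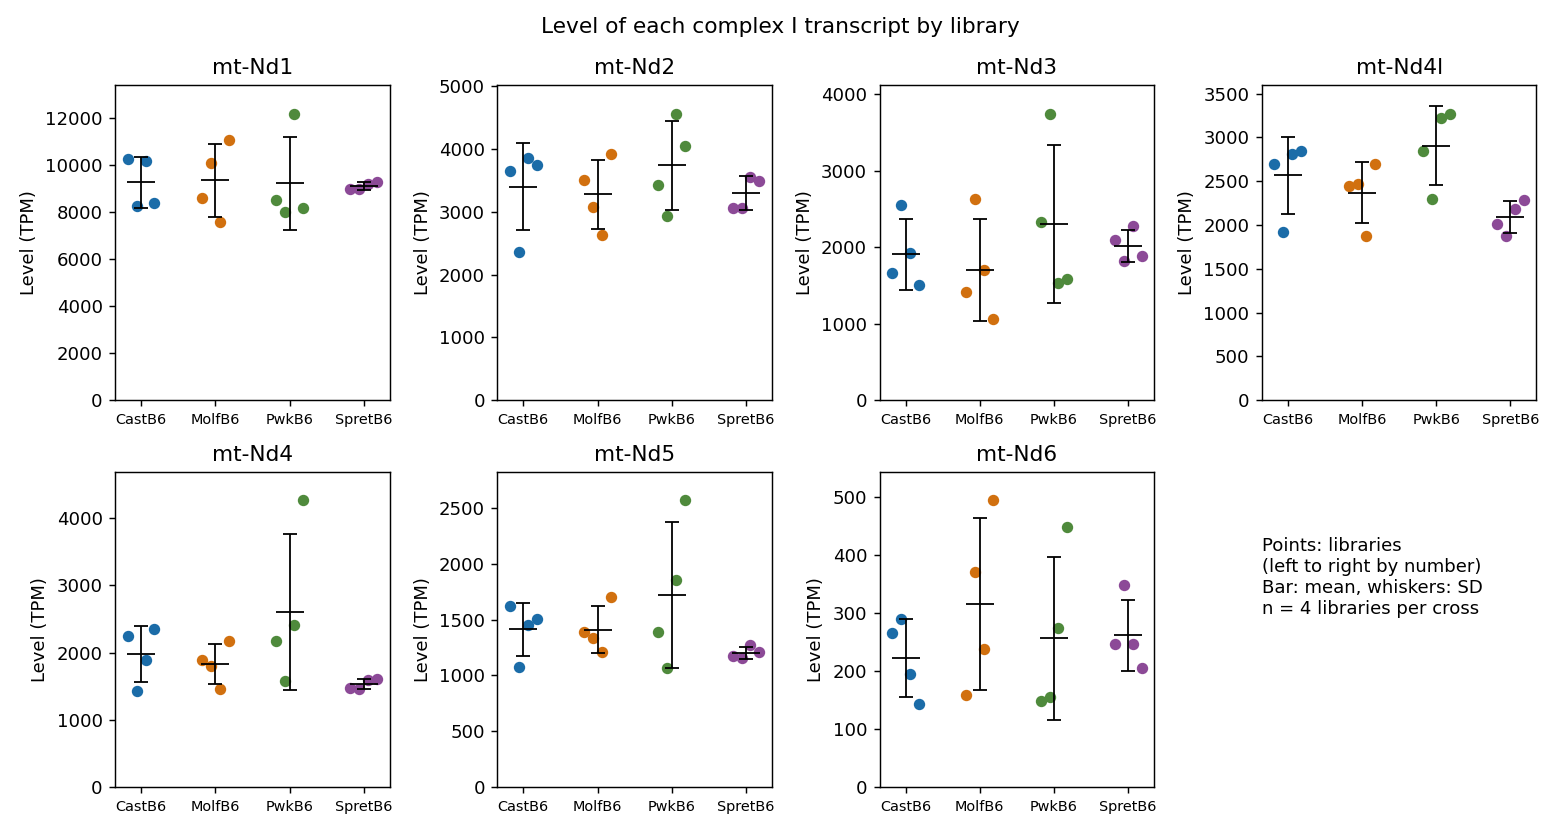
Level in TPM of each of the 7 transcripts by cross, 1 point per library, with the mean and SD of the 4 libraries as a bar and whiskers. The crosses overlap in nearly every panel, mt-Nd3 and mt-Nd6 spread widely within CastB6, MolfB6 and PwkB6, and PwkB6 6 stands high for mt-Nd4 (4268 TPM) and mt-Nd5 (2571 TPM).

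The subunits at the ubiquinone end of the arm are ND1 and ND3. The level of mt-Nd1 was 10262, 8245, 10159 and 8398 TPM in CastB6 1, 3, 5 and 6, and 8611, 10103, 7593 and 11074 TPM in MolfB6 1, 2, 3 and 6. It was 8500, 8007, 12185 and 8179 TPM in PwkB6 1, 3, 5 and 6, and 8999, 8959, 9193 and 9278 TPM in SpretB6 1, 3, 5 and 6. The 4 SpretB6 libraries lay close together inside the range of each other cross, and PwkB6 5 was the highest of all. In mean TPM the crosses were close: CastB6 had 9266 ± 1093, MolfB6 9345 ± 1546, PwkB6 9218 ± 1989 and SpretB6 9108 ± 153 (SD, n = 4 each).

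The protein of mt-Nd3 holds a loop near the ubiquinone site that changes when the enzyme shifts between its active and inactive states. mt-Nd3 stood at 1666, 2556, 1922 and 1500 TPM in CastB6 1, 3, 5 and 6, and at 1421, 2626, 1705 and 1059 TPM in MolfB6 1, 2, 3 and 6. The PwkB6 libraries 1, 3, 5 and 6 gave 2337, 3750, 1535 and 1585 TPM, and the SpretB6 libraries 1, 3, 5 and 6 gave 2097, 1815, 2283 and 1883 TPM. The highest value, in PwkB6 3, was 3.54 times the lowest, in MolfB6 6, and all 4 crosses overlapped. The effective length that divides its reads differed by only 1.04-fold among libraries. Its reads numbered 12032 to 31747 per library, for which counting error alone is 0.561% to 0.912%.

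mt-Nd6 and mt-Nd4l encode small subunits that lie between the ubiquinone end and the pumping subunits. The level of mt-Nd6 was 266, 289, 194 and 143 TPM in CastB6 1, 3, 5 and 6, and 159, 370, 238 and 495 TPM in MolfB6 1, 2, 3 and 6. For PwkB6 1, 3, 5 and 6 it was 148, 155, 275 and 449 TPM, and for SpretB6 1, 3, 5 and 6 it was 246, 349, 247 and 205 TPM. The lowest libraries of CastB6, MolfB6 and PwkB6 stood at 143, 159 and 148 TPM, next to libraries of the same cross at up to 3.12 times the level, and all crosses overlapped. Reads numbered 1918 to 10338, for which counting error is 0.984% to 2.28%.

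mt-Nd4l was the steadiest of the short transcripts, although it is the shortest. It stood at 2693, 1916, 2815 and 2842 TPM in CastB6 1, 3, 5 and 6, and at 2444, 2466, 1879 and 2694 TPM in MolfB6 1, 2, 3 and 6. In PwkB6 1, 3, 5 and 6 it was at 2842, 2298, 3218 and 3273 TPM, and in SpretB6 1, 3, 5 and 6 at 2012, 1871, 2184 and 2289 TPM. In TPM all 4 SpretB6 libraries lay below all 4 PwkB6 libraries, by a narrow gap. In log2 CPM (read counts relative to the TMM-scaled library total) these crosses overlapped. There SpretB6 6 was at 8.24, above PwkB6 3 at 8.10 and PwkB6 6 at 8.21. Of the 42 combinations of a member and a pair of crosses, mt-Nd4l in SpretB6 and PwkB6 was the only one without overlap in TPM. Over all tested transcripts, SpretB6 and PwkB6 did not overlap in 13.9%. The same share was 10.6% for MolfB6 and CastB6, 11.2% for PwkB6 and CastB6 and 16.6% for SpretB6 and CastB6. For MolfB6 it was 7.98% with PwkB6 and 15.7% with SpretB6. A count of 1 in 42 is below these shares.

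ND2, ND4 and ND5 are the antiporter-like subunits that carry the proton channels. mt-Nd4 was at 2246, 1431, 1884 and 2350 TPM in CastB6 1, 3, 5 and 6, and at 1892, 1796, 1464 and 2172 TPM in MolfB6 1, 2, 3 and 6. The values were 2167, 1578, 2413 and 4268 TPM in PwkB6 1, 3, 5 and 6, and 1467, 1456, 1596 and 1604 TPM in SpretB6 1, 3, 5 and 6. PwkB6 6 was the highest library, and the SpretB6 libraries were among the lowest, though CastB6 3, MolfB6 3 and PwkB6 3 lay below the highest of them. mt-Nd5 ranged from 1072 to 1623 TPM in CastB6, from 1214 to 1703 in MolfB6, from 1069 to 2571 in PwkB6 and from 1157 to 1275 in SpretB6. mt-Nd2 ranged from 2365 to 3857 TPM in CastB6, from 2635 to 3912 in MolfB6, from 2925 to 4563 in PwkB6 and from 3054 to 3556 in SpretB6. For both transcripts every cross overlapped every other.

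The question of whether the 4 crosses differ was answered first with 1 joint test per transcript. None of the 7 passed (quasi-likelihood F test of edgeR, with Benjamini-Hochberg adjustment over the 56721 transcripts tested), and 0 had an unadjusted p under 0.05. Of the 56721 tested, 13625 had an unadjusted p under 0.05. Over all tested transcripts 9.73% were called, so 0 of 7 is close to that background. The lowest joint value was that of mt-Nd4 (adjusted p = 0.252), followed by mt-Nd4l (adjusted p = 0.424) and mt-Nd5 (adjusted p = 0.558). mt-Nd6, mt-Nd1, mt-Nd2 and mt-Nd3 had adjusted p-values of 0.749, 0.873, 0.950 and 0.961. DESeq2 also called 0 of 7, where it called 19.4% of all tested transcripts, and limma voom called 0 of 7 against 10.9%.

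Each pair of crosses was then compared in the same fit. Over the 6 pairs, 0 of the 42 combinations of a member and a pair were called, and 3 had an unadjusted p under 0.05. Of the 56721 transcripts tested, 6827 (PwkB6 against MolfB6) to 10848 (PwkB6 against CastB6) had such a p. For SpretB6 they numbered 10417 against CastB6 and 10590 against PwkB6. As a share, 3 in 42 is below that of all tested transcripts in every pair. All tested transcripts were called at 2.76% for MolfB6 against CastB6, 3.76% for PwkB6 against CastB6, 6.05% for SpretB6 against CastB6, 1.2% for PwkB6 against MolfB6, 5.53% for SpretB6 against MolfB6 and 5.5% for SpretB6 against PwkB6. DESeq2 and limma voom called 0 of 7 in each pair too. In the same order of pairs DESeq2 called 6.73%, 10%, 11%, 4.34%, 9.88% and 10.5% of all tested transcripts, and limma voom 2.97%, 4.39%, 6.58%, 1.42%, 6.23% and 6.26%. Adjacent crosses in the order of levels were therefore not distinguished for any member, and neither were the highest and the lowest cross. In bulk RNA, fewer cells of a type and less RNA per cell cannot be told apart.

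The 3 combinations with a low unadjusted p concerned mt-Nd4 and mt-Nd4l, the transcripts that share 1 RNA, in SpretB6. For mt-Nd4 the log2 fold change of SpretB6 against PwkB6 was -0.56 ± 0.20 (SE; 95% interval -0.99 to -0.13; edgeR adjusted p = 0.135). Without PwkB6 6 it was -0.38 (edgeR adjusted p = 0.346), and without PwkB6 3 it was -0.69 and was called (edgeR adjusted p = 0.0452, where 5.41% of 58964 tested transcripts were called). Its adjusted p over all alternatives ran from 0.0452 to 0.346. Against CastB6, mt-Nd4 in SpretB6 had a log2 fold change of -0.46 ± 0.20 (SE; 95% interval -0.89 to -0.03; edgeR adjusted p = 0.231). mt-Nd4l had -0.40 ± 0.18 in the same pair (SE; 95% interval -0.78 to -0.02; edgeR adjusted p = 0.242). For mt-Nd5 the SpretB6 values were -0.33 ± 0.19 against CastB6, -0.25 ± 0.19 against MolfB6 and -0.33 ± 0.19 against PwkB6 (SE), with edgeR adjusted p-values of 0.385, 0.603 and 0.386. The value against MolfB6 was -0.15 without MolfB6 6, and that against PwkB6 was -0.22 without PwkB6 6.

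The intervals say how large a difference these libraries leave room for. In 37 of the 42 combinations the 95% interval stayed within 2-fold in either direction. For mt-Nd1 all 6 intervals lay between -0.69 and 0.56 on the log2 scale, for mt-Nd2 between -0.56 and 0.44, and for mt-Nd5 between -0.73 and 0.48. The 5 wider ones belonged to mt-Nd6 in 4 pairs and to mt-Nd3 in 1. The mt-Nd6 difference of MolfB6 from CastB6 was 0.44 ± 0.39 (SE), with an interval of -0.39 to 1.27. It was 0.15 without MolfB6 6, 0.26 without MolfB6 2, 0.25 without CastB6 6 and 0.67 without MolfB6 1. That of PwkB6 from MolfB6 was -0.56 ± 0.39 (SE), with an interval of -1.38 to 0.27. It was -0.26 without MolfB6 6 and -0.80 without PwkB6 6. For mt-Nd3 the widest reach was 1.01, in PwkB6 against MolfB6 (0.26 ± 0.35, SE). That difference took the other sign without PwkB6 3 (-0.14). It was 0.09 without MolfB6 6, 0.13 without MolfB6 1, 0.46 without PwkB6 6 and 0.67 without MolfB6 2.

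**Figure D2:**
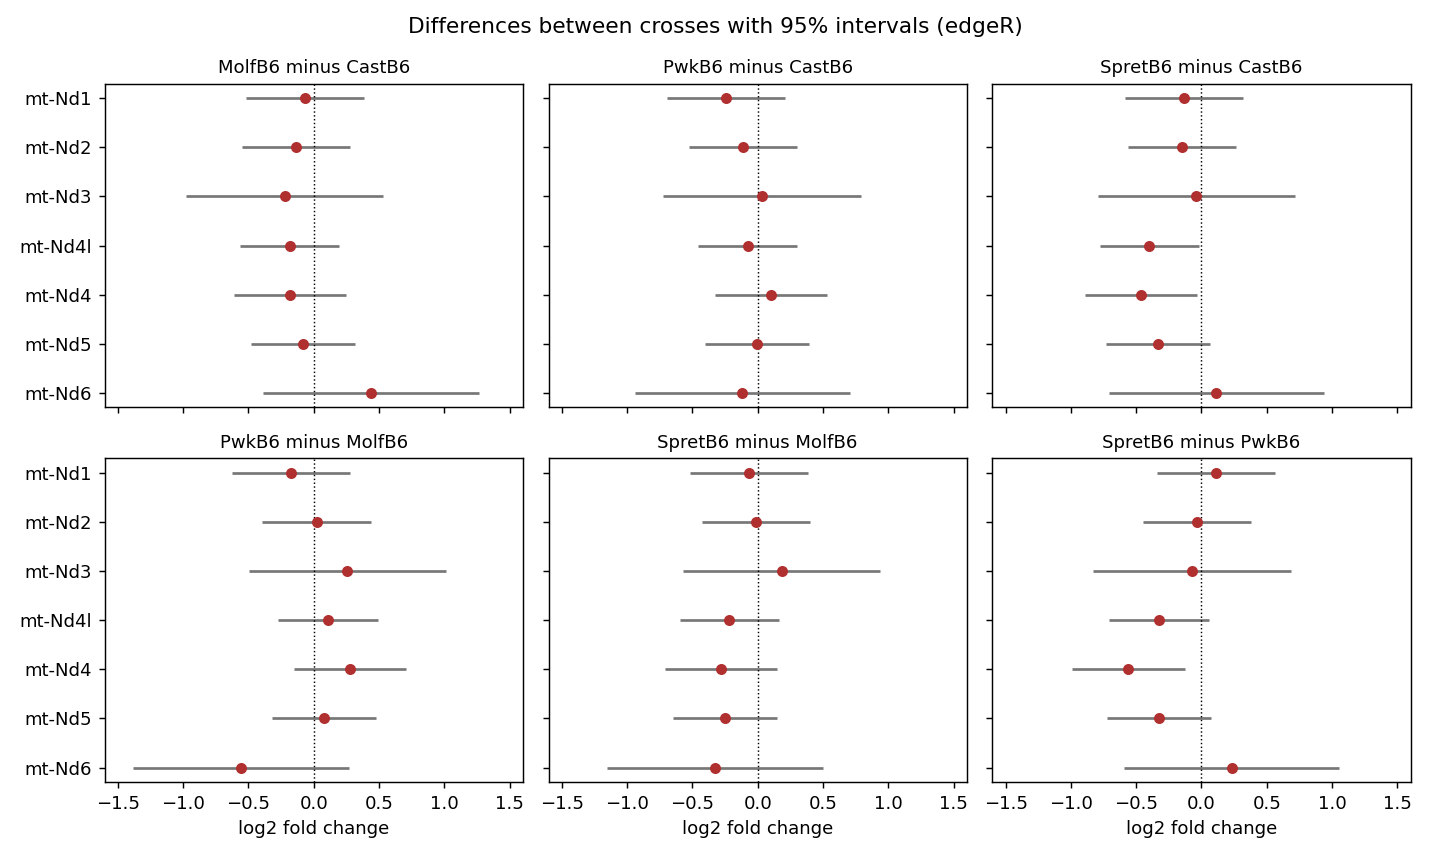
Log2 fold change (points) and 95% interval (lines) of each transcript for each pair of crosses, from edgeR on TMM-scaled counts; the dotted line marks no difference. Most intervals cross 0, those of mt-Nd3 and mt-Nd6 are the widest, and the mt-Nd4 interval of SpretB6 minus PwkB6 (-0.99 to -0.13) lies below 0 although its adjusted p, 0.135, misses the threshold.

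The median log2 fold change of the 7 members was set beside that of all tested transcripts in each pair. For MolfB6 against CastB6 it was -0.14, beside 0.03 over all tested, and for PwkB6 against CastB6 -0.07 beside 0.09. SpretB6 gave -0.15 against CastB6, -0.22 against MolfB6 and -0.07 against PwkB6, beside 0.03, -0.01 and -0.07 over all tested. PwkB6 against MolfB6 gave 0.08 beside 0.04. With library totals in place of TMM, the median of all tested transcripts moved from 0.09 to 0.27 for PwkB6 against CastB6, and values of this size took the other sign for some members. Mean TPM in PwkB6 and CastB6 was 3737 and 3402 for mt-Nd2, and 2908 and 2567 for mt-Nd4l. For mt-Nd5 it was 1721 and 1415, and for mt-Nd6 257 and 223. Each of these was higher in PwkB6, whereas the TMM-scaled log2 fold change was below 0. By both measures mt-Nd3 and mt-Nd4 were higher in PwkB6 and mt-Nd1 lower.

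Most of the variation of these transcripts lay within crosses. The share of variance of log2 CPM (read counts relative to the TMM-scaled library total) between crosses had a median of 11.9% over the members, against 30.5% over all tested transcripts and 38.7% over the 25% of them with the highest mean level. It was 36.7% for mt-Nd4, 29.0% for mt-Nd4l and 20.8% for mt-Nd5, and 4.21% to 11.9% for the other 4. The spread among libraries alone gives some share between crosses, and no member passed the joint test. The SD within crosses was 0.26 to 0.31 on the log2 scale for mt-Nd1, mt-Nd2, mt-Nd4l, mt-Nd4 and mt-Nd5. These lay near the median of 0.26 for that highest class. mt-Nd3 and mt-Nd6 stood at 0.53 and 0.60. In the same class 91.0% of transcripts had a smaller SD than mt-Nd3, and 93.9% had a smaller one than mt-Nd6.

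SpretB6 libraries were the most alike for every member. The SD of log2 CPM was lowest in SpretB6 for 7 of 7 members, and highest in PwkB6 for 4, in MolfB6 for 2 and in CastB6 for 1. For mt-Nd1 it was 0.09 in SpretB6, 0.26 in CastB6, 0.36 in MolfB6 and 0.44 in PwkB6, and for mt-Nd3 0.11, 0.41, 0.65 and 0.71 in the same order (n = 4 each). The median SD over all tested transcripts was also lowest in SpretB6, 0.36, and highest in PwkB6, 0.52. These differences in spread were not tested.

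**Figure D3:**
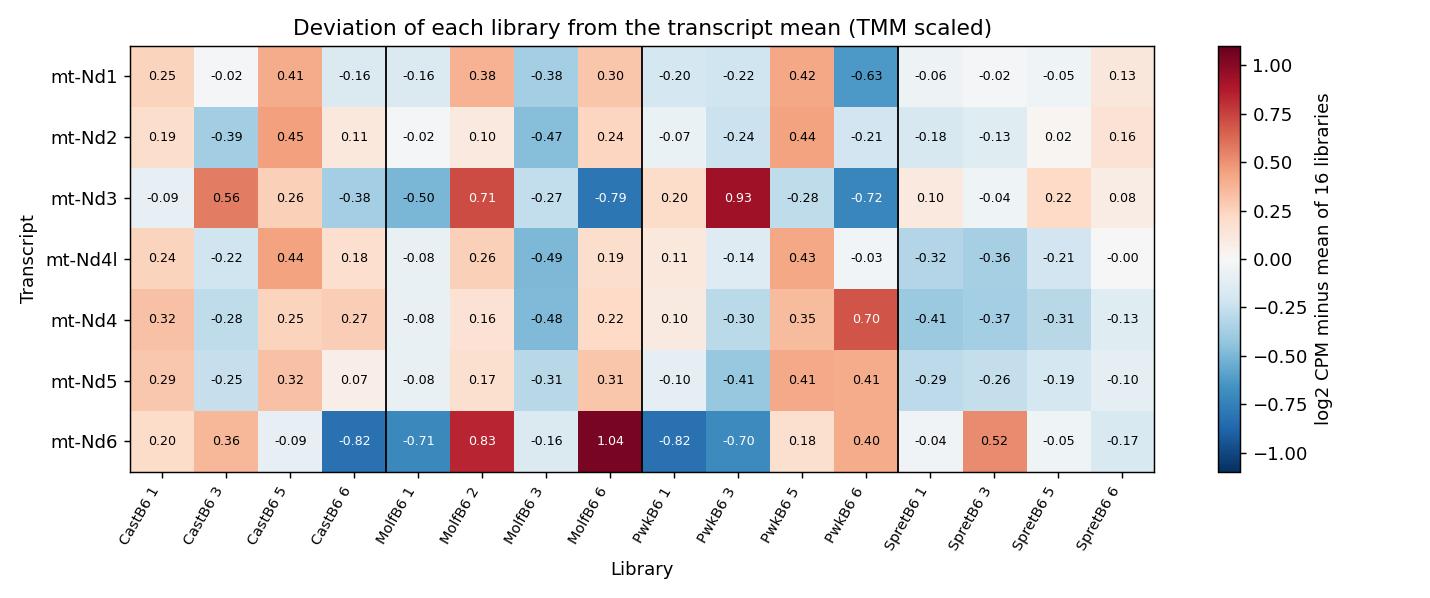
Deviation of each library (columns) from the mean log2 CPM of each transcript over the 16 libraries (rows), with the value in each cell and black lines between crosses. The strongest colours are in the rows of mt-Nd3 and mt-Nd6, where MolfB6 6 is at -0.79 for mt-Nd3 and at 1.04 for mt-Nd6, and the SpretB6 columns are pale.

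Which libraries were high or low depended on the transcript. MolfB6 6 was 1.04 above the mean log2 CPM for mt-Nd6 and 0.30 above for mt-Nd1, but stood at -0.79 for mt-Nd3. PwkB6 3 was 0.93 above for mt-Nd3 and stood at -0.70 for mt-Nd6 and -0.41 for mt-Nd5. MolfB6 3 was below the mean for all 7, from -0.49 for mt-Nd4l to -0.16 for mt-Nd6. PwkB6 6 combined -0.63 for mt-Nd1 and -0.72 for mt-Nd3 with 0.70 for mt-Nd4 and 0.41 for mt-Nd5. In TPM, mt-Nd4 made up 17.5% of the sum of the 7 members there, against 7.70% to 11.5% in the other 15 libraries, and mt-Nd1 made up 33.6%, against 40.5% to 48.0%.

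Correlations of log2 CPM over the 16 libraries were computed for all 21 pairs of members. All members of a library share its scaling and depth. By Pearson's r, 7 pairs passed after Benjamini-Hochberg adjustment of the permutation p, each of them positive, and they joined mt-Nd1, mt-Nd2, mt-Nd4l, mt-Nd4 and mt-Nd5. By Spearman's rho mt-Nd2 with mt-Nd4 passed as well (rho = 0.61, permutation p = 0.0146, adjusted p = 0.0383), where r was 0.56 (permutation p = 0.0235, adjusted p = 0.0617), and 0.45 without CastB6 5 and MolfB6 3. By either measure none of the 6 pairs with mt-Nd3 and none of the 6 with mt-Nd6 passed. The closest pair was mt-Nd4 with mt-Nd5, with r = 0.93 and Spearman's rho = 0.93 (permutation p = 1e-05 for each, the smallest that 100000 permutations can give; adjusted p = 0.000105 and 0.00021). Without MolfB6 3 and PwkB6 6, the 2 libraries farthest from the mt-Nd4 median, r was 0.92.

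The next pair, mt-Nd2 with mt-Nd4l, had r = 0.87 (permutation p = 1e-05, adjusted p = 0.000105) and rho = 0.85 (permutation p = 7e-05, adjusted p = 0.000735). It had r = 0.79 without CastB6 5 and MolfB6 3. mt-Nd1 with mt-Nd2 had r = 0.78 (permutation p = 0.00041, adjusted p = 0.00172) and rho = 0.79 (permutation p = 0.00059, adjusted p = 0.00248), and r = 0.78 without PwkB6 5 and PwkB6 6. With deviations from the mean of each cross, the 3 pairs gave 0.94, 0.96 and 0.80, so they held within crosses. A cross alone, with 4 libraries, is too small for an r of its own. mt-Nd1 with mt-Nd4 had r = 0.16 (permutation p = 0.554, adjusted p = 0.668) and rho = 0.32 (permutation p = 0.225, adjusted p = 0.363), and r = 0.61 without PwkB6 5 and PwkB6 6. Of those 2, only PwkB6 6 went opposite ways from the mean log2 CPM, with -0.63 for mt-Nd1 and 0.70 for mt-Nd4. PwkB6 5 was above the mean for both, by 0.42 and 0.35.

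mt-Nd3 had a negative r with 5 of the other 6 members. With mt-Nd5 it was -0.48 (permutation p = 0.0605, adjusted p = 0.141), rho was -0.45 (permutation p = 0.0839, adjusted p = 0.160), and r was -0.26 without MolfB6 6 and PwkB6 3. With mt-Nd4l, its nearest gene here, r was -0.08 (permutation p = 0.778, adjusted p = 0.778) and rho -0.07 (permutation p = 0.797, adjusted p = 0.797), and r was 0.08 without those 2 libraries.

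**Figure D4:**
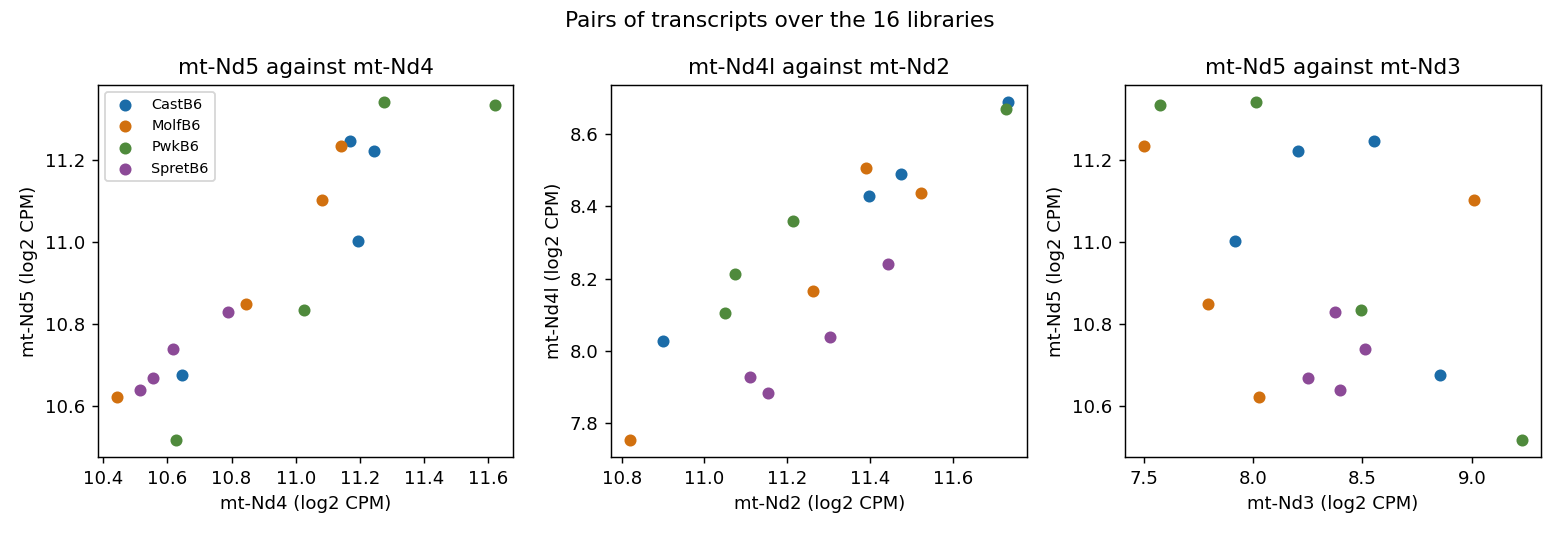
Log2 CPM (TMM scaled) of mt-Nd5 against mt-Nd4, of mt-Nd4l against mt-Nd2 and of mt-Nd5 against mt-Nd3, 1 point per library, coloured by cross. The first 2 pairs rise together over all crosses (r = 0.93 and 0.87), and in the third the points scatter (r = -0.48).

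Ratios within a library do not depend on its scaling, and 2 were compared. The ratio of mt-Nd6 to mt-Nd5, neighbours on opposite strands, was 0.0947 to 0.302 in TPM. By cross its mean log2 was -2.70 ± 0.63 (CastB6), -2.28 ± 0.62 (MolfB6), -2.82 ± 0.30 (PwkB6) and -2.23 ± 0.36 (SpretB6), each with the SD of 4 libraries. The crosses did not differ beyond the spread of their libraries (exact permutation p = 0.285 over 2627625 divisions of the libraries). The farthest pair was SpretB6 against PwkB6, with a difference of 0.59 (two-sided exact permutation p = 0.0571, adjusted p = 0.686 over 12 pair tests; the smallest p for 4 against 4 is 0.0286).

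The ratio of mt-Nd4l to mt-Nd4, which share 1 RNA, was steadier. It ranged from 1.20 to 1.49 in 15 libraries and was 0.767 in PwkB6 6. The mean log2 ratio of CastB6 was 0.38 ± 0.15, that of MolfB6 0.37 ± 0.06, that of PwkB6 0.24 ± 0.42 and that of SpretB6 0.45 ± 0.06 (SD, n = 4 each). The crosses did not differ beyond this spread (exact permutation p = 0.800, and 0.604 without PwkB6 6). The difference between length and effective length was taken as its median over transcripts longer than 2000 bases. It was 147 to 156 bases over the libraries and 148 in PwkB6 6. This correction weighs most on the short mt-Nd4l, whose own effective length was 146 to 153 of 297 bases over the libraries.

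**Figure D5:**
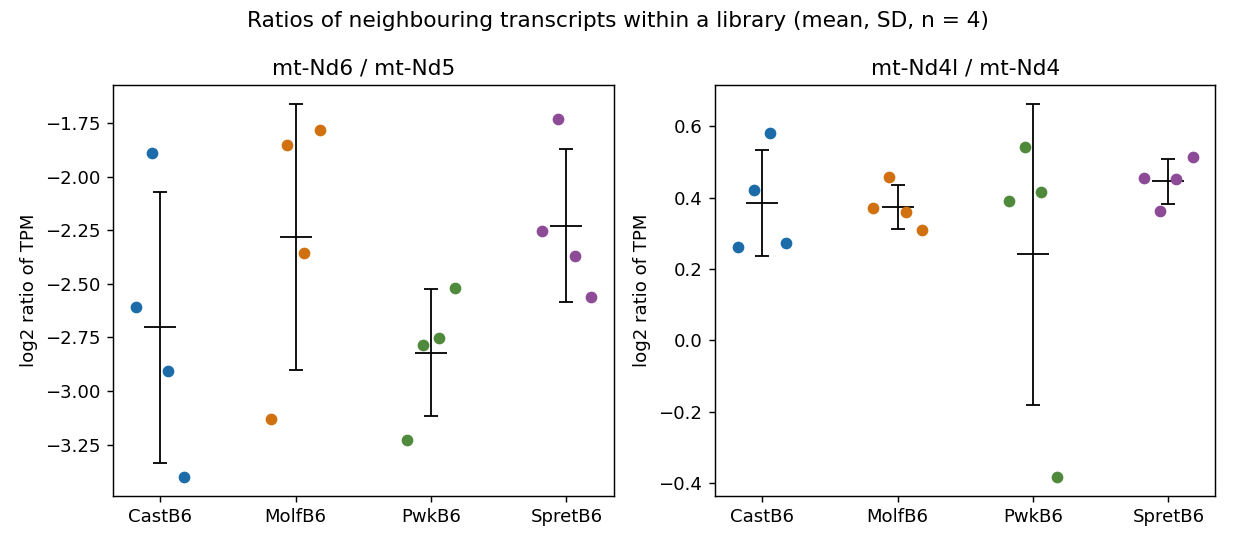
Log2 ratio of TPM within each library for mt-Nd6 over mt-Nd5 and mt-Nd4l over mt-Nd4, 1 point per library with the mean and SD of each cross (n = 4). The first ratio runs from -3.40 to -1.89 in CastB6, from -3.13 to -1.78 in MolfB6, from -3.23 to -2.52 in PwkB6 and from -2.56 to -1.73 in SpretB6, and in the second PwkB6 6 lies alone at -0.38 while the other 15 libraries lie between 0.26 and 0.58.

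Outside the 7, the transcripts whose pattern was most like the mean of the members over the 16 libraries were sought among 56714 others. ENSMUST00000154470.8 had the highest Pearson correlation, 0.89, but was listed at 0 in 11 of 16 libraries and reached 0.561 TPM at most. ENSMUST00000179445.8, of 1665 bases, had 0.88 and lay between 32.1 and 47.2 TPM. With so many candidates and 16 libraries, these values are a description only.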

How the data were processed

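Total RNA of 16 libraries (4 per cross, groups from the titles) was measured. Per the file headers, the deposited tables give estimated counts and TPM per transcript. Salmon, DESeq2 and mm10 are named in the submitters' processing notes. Their versions, the transcript set and the strand and bias settings were not given in the sources used here. RefSeq's GRCm38.p6 gene table gave lengths and positions for 7 of 7 members, by symbol.

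Estimated counts were rounded and tested on all transcripts kept by filterByExpr (minimum count 10, total 15; 56721 kept, all 7 members among them) with edgeR 4.0.16 in R 4.3.3, TMM and 1 quasi-likelihood fit with cross as the factor. The threshold was an adjusted p of 0.05. The SE of a log2 fold change was derived as its size divided by the square root of its F statistic. Intervals used that SE and the degrees of freedom of the fit, and log2 CPM a prior count of 2. Alternatives used DESeq2 1.42.0, limma 3.58.1, other scalings and filters, a block and left-out libraries. Ratios and correlations used permutations in scipy 1.17.1. The scripts were tested on simulated data. No 2 libraries held equal values. Intervals do not cover how shared reads were divided. All 7 members were named whatever their values, with the 2 transcripts most correlated with their mean. The members, lists and tests were chosen with earlier results of these data known.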

Additional observations from a re-analysis of the deposited data

Results flagged for a closer look

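A library far from the other 3 of its cross was sought in 48 groups of 4 libraries. This held in 4 groups, where a chance rate of 1 in 20 would give about 2.4, although the groups are not independent. In CastB6 3, mt-Nd2 stood at 2365 TPM, against 3641 to 3857 in the other 3 CastB6 libraries. mt-Nd4l was low in the same library, at 1916 TPM against 2693 to 2842. In PwkB6 5, mt-Nd1 stood at 12185 TPM, against 8007 to 8500 in the other 3. These 3 flags rest on TPM. In log2 CPM, CastB6 3 was at 10.90 for mt-Nd2, against 11.40 to 11.73, and at 8.03 for mt-Nd4l, against 8.43 to 8.69. PwkB6 5 was at 13.01 for mt-Nd1 in log2 CPM, against 11.95 to 12.39 in the other 3 PwkB6 libraries. The log2 ratio of mt-Nd4l over mt-Nd4 was -0.38 in PwkB6 6, against 0.39 to 0.54 in the other 3. The causes were not tested.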

How the results depend on the processing

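Under 8 other choices of tool, scaling, filter and block for the joint test, and 9 for each pair, where the fit of only the 2 crosses was added, 0 of 7 members were called. With 1 library left out, the count for SpretB6 minus PwkB6 ran from 0 to 1, the 1 being mt-Nd4 without PwkB6 3 (-0.69, edgeR adjusted p = 0.0452), and the other counts stayed at 0. The joint exact p ran from 0.0898 to 0.440 for mt-Nd6 over mt-Nd5 and from 0.301 to 0.894 for mt-Nd4l over mt-Nd4. With counts in place of TPM it was 0.292 and 0.782. Of the 9 log2 fold changes given singly, 1 changed sign: mt-Nd3 for PwkB6 minus MolfB6 ran from -0.14 without PwkB6 3 to 0.67 without MolfB6 2. Over all 42 combinations, 19 changed sign in at least 1 alternative, each with a main log2 fold change of 0.26 or less in size and none called.

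Whether the numbers in the titles mark a pairing is not given in the labels, and the values did not settle it. Deviations of same-numbered libraries correlated between -0.07 and 0.13, over 0.1 in 1 of 21 pairs, and 5 of 16 libraries matched their own number best. No chance value was computed for that count. With a replicate block, 0 members were called, and mt-Nd4 in SpretB6 minus PwkB6 had an edgeR adjusted p of 0.0528. The block moved mt-Nd6 to 0.15 for MolfB6 minus CastB6 and to -0.36 for PwkB6 minus MolfB6, and mt-Nd3 in the latter pair to 0.60. Over all tested transcripts the joint calls numbered 5519, with 3581 under the block and 11022 by DESeq2. In the 6 pairs, in the order of the report, they were 1564 (797 to 3817 over the alternatives), 2134 (658 to 5679), 3430 (2386 to 6256), 682 (304 to 2459), 3137 (1717 to 5606) and 3121 (1980 to 5975), each highest by DESeq2. The counting error of a member is at most 2.28% per library. It takes reads as independent molecules, and a change of depth was not tested. The causes of these changes were not tested.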
